A study of Homo sapiens with 6 samples.

Results

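The genes described here are 36 components of the unfolded protein response, among them the chaperone HYOU1, in a human granulosa cell line depleted of the transcription factor FOXL2. They were chosen by symbol, and each of the 36 symbols matched 1 of the 60671 genes in the deposited tables. HYOU1 heads the list, which was proposed with values of these same 6 libraries known, so that what follows for the contrast between the conditions is a description and not independent evidence. The cells were KGN, a line from an ovarian granulosa cell tumour, edited with Crispr to carry wild-type FOXL2 on both alleles (genotype FOXL2 WT/WT in every library), and the sources used here do not say whether they were 1 clone. Cells received 30 pmol of siRNA against FOXL2 (3 libraries, FOXL2 siRNA) or the same amount of a scrambled siRNA (3 libraries, control siRNA), and RNA was taken 30 h later. The 3 FOXL2 siRNA libraries came from 3 pools of 3 siRNAs each, drawn from 4 siRNAs with 1 common to all pools, so that they replicate the depletion and not the siRNA mixture. Whether the libraries of a condition came from separate cultures is not given, and the spread between them may be technical.

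The total expected counts lay between 23843192 and 28791954 per library. FOXL2 itself was at 9.88, 9.71 and 10.8 CPM (counts scaled to the library's size, after TMM normalization) with the control siRNA and at 2.64, 3.31 and 2.36 CPM with the FOXL2 siRNAs, 27.3% of the control mean. Of 12 granulosa markers, 6 passed the filter on low counts. AMH, INHBA, NR5A1 and STAR had the highest levels, while FSHR and WT1 were at 0 in all libraries. The summed markers lay between 115 and 125 TPM (a level per transcript length, scaled to the library) with the control siRNA and between 101 and 117 TPM with the FOXL2 siRNAs. INHA, CYP19A1, NR5A2, AMHR2 and GATA4, also granulosa markers, each had a mean under 1 TPM. The Sertoli cell markers SOX9 and DMRT1 summed to 5.66 to 7.62 TPM with the control siRNA. With the FOXL2 siRNAs their sum was 5.09 to 9.55 TPM, and on average nearly all of it was SOX9. Epithelial and endothelial markers summed to under 1 TPM in every library. The 3 leukocyte markers summed to 72.9 to 86.0 TPM with the control siRNA and to 52.8 to 70.2 TPM with the FOXL2 siRNAs, nearly all of it CD68, a lysosomal protein, with CD3E at 0. On the first principal component (31.2% of the variance) FOXL2 siRNA replicate 2 stood apart, at 40.9 against -17.2 to -0.025 for the other 5 libraries, and the log2 fold change of HYOU1 without it was -0.90. What part these differences have in the results below was not tested. In bulk RNA fewer cells of a type and less RNA per cell cannot be told apart.

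Proteins that enter the endoplasmic reticulum (ER) are folded there by chaperones and by enzymes that form disulphide bonds, and those that fail are retrotranslocated and degraded (ER-associated degradation, ERAD). When unfolded proteins accumulate, the sensors ATF6, IRE1 (encoded by ERN1) and PERK (encoded by EIF2AK3) raise the transcription of this machinery through cleaved ATF6, spliced XBP1 and ATF4. ATF6 and XBP1 act at the ER stress response elements ERSE and ERSE-II and at the unfolded protein response element UPRE of their target promoters. HYOU1, a large relative of HSP70 also called ORP150, acts in the ER lumen as a nucleotide exchange factor of HSPA5 (BiP), the main HSP70 of the ER.

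HYOU1 (ENSG00000149428) occupies bases 119044189 to 119057202 of chromosome 11, minus strand, in GENCODE v29 (GRCh38). Its promoter is shown because it held 3 matches of the elements searched, more than any other member's. The 250 bases before the RefSeq start site (chr11:119057206-119057455 of GRCh38.p14, minus strand) were as follows, with the bases of the matches in capitals.
HYOU1 promoter: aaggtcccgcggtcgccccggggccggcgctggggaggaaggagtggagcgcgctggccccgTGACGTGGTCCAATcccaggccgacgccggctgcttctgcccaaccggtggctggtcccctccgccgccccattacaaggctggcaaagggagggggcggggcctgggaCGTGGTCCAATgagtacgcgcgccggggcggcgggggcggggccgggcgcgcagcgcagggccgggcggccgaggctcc
The first run of capitals held a UPRE (TGACGTGG, from base -188 to -181 relative to the start site) that overlapped an ERSE-II (ATTGG and CCACG with 1 base between, here on the opposite strand, from -185 to -175). The second run, from -79 to -69, was another ERSE-II. HERPUD1 and SDF2L1 were the other members with an ERSE-II, and 8 members had an ERSE, which is CCAAT and CCACG with 9 bases between. An ERSE of HSPA5, HSP90B1, PDIA6, CRELD2 and XBP1, and an ERSE-II of each of the 3 members with one, are given 5' to 3' on the gene's strand with the match in capitals and 5 bases on each side, to set HYOU1's site beside those of its partners.
HSPA5 ERSE, chr9:125241386-125241414, minus strand: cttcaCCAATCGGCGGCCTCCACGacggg
HSP90B1 ERSE, chr12:103930316-103930344, plus strand: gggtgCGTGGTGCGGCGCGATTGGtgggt
PDIA6 ERSE, chr2:10812848-10812876, minus strand: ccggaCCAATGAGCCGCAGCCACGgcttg
CRELD2 ERSE, chr22:49918549-49918577, plus strand: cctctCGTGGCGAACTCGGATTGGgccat
XBP1 ERSE, chr22:28800598-28800626, minus strand: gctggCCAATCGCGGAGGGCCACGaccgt
HERPUD1 ERSE-II, chr16:56932020-56932040, plus strand: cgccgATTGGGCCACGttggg
SDF2L1 ERSE-II, chr22:21642109-21642129, plus strand: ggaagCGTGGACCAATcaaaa
HYOU1 ERSE-II, chr11:119057269-119057289, minus strand: tgggaCGTGGTCCAATgagta

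Both strands of the 300 bases around each start (250 before and 50 after) were searched. RefSeq promoters were at hand for 33 of the 36 members (44 entries). Counted by gene, an ERSE was found in 0.0916% of all 27305 genes with a promoter, an ERSE-II in 0.0696% and a UPRE in 0.927%. Of the 35116 promoters of these genes, 0.0769%, 0.0541% and 0.729% had them. In members, 8 of 33 genes had an ERSE (CALR, CANX, CRELD2, ERO1B, HSP90B1, HSPA5, PDIA6 and XBP1), 3 an ERSE-II and 1 a UPRE (HYOU1). The element bound by ATF4, sought as TGATGNAA, was found in 4.46% of all genes (3.62% of all promoters) and in 1 member, HERPUD1. The forkhead sequence GTAAACA was found in 4.19% of all genes (3.42% of all promoters) and in 0 of 33 members. These are matches of letters in a short window and were not tested for binding.

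HYOU1 had the lowest log2 fold change of the 35 members tested. The control libraries held 5264, 5499 and 6645 HYOU1 counts and the FOXL2 siRNA libraries 2825, 3513 and 4074. In CPM these were 209.8, 224 and 248 against 103, 145 and 141. No FOXL2 siRNA library reached the lowest control library, and the lowest value was that of pool 1. Relative to the control mean, 45.5%, 63.8% and 62.2% of HYOU1 remained with pools 1, 2 and 3. For FOXL2 the lowest level was that of pool 3, near that of pool 1. Each pool had 1 library, so differences between pools were not tested. The level per transcript length was 91.0 ± 8.22 TPM with the control siRNA and 54.6 ± 11.1 TPM with the FOXL2 siRNAs (SD, n = 3 each). The log2 fold change was -0.81 (standard error, SE, 0.124), in the contrast whose values were known when the list was proposed. The effective length that RSEM estimated for the gene was 3630 to 3769 bases in the control libraries and 3581 to 3636 bases in the FOXL2 siRNA libraries.

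HYOU1 has relatives outside the ER, whose differences from HYOU1 were not tested. HSPH1 (HSP105), a nucleotide exchange factor of cytosolic HSP70, was at 215 ± 4.78 and 221 ± 15.8 CPM (SD, n = 3 each) with the control and the FOXL2 siRNAs (log2 fold change 0.04, SE 0.0660, and -0.011 without FOXL2 siRNA replicate 1). HSPA4 was at 197, 194 and 180.0 CPM against 176, 171 and 169 CPM (log2 fold change -0.15, SE 0.0595). HSPA4L had 12.7 ± 0.436 against 12.7 ± 0.555 CPM (SD, n = 3 each). edgeR called none of these 3 relatives at an adjusted p below 0.05, HSPA4 alone had p below 0.05 before adjustment, and DESeq2 called none.

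Across the members, 35 of 36 passed the filter on low counts. The exception was DERL3, a derlin, with 1, 1 and 2 counts in the control libraries and 0 in each FOXL2 siRNA library, all within the 3 counts that a count of 0 allows. By edgeR's quasi-likelihood test 1 of the 35, HYOU1, had an adjusted p below 0.05 and was lower, beside 0.255% of the 15663 genes tested (0.147% lower and 0.109% higher). DESeq2 called HYOU1, lower (adjusted p = 1.55e-08), and DNAJB9, higher, beside 2.23% of the same genes (1.33% lower and 0.907% higher). The adjusted p of HYOU1 in edgeR was 0.0467, near the threshold, and without control siRNA replicate 1, 2 or 3 or FOXL2 siRNA replicate 3 it was 0.247, 0.256, 0.177 and 0.0915. With effective lengths as offsets in edgeR it was 0.0561. The fits without those libraries called 2, 3, 2 and 9 of all the genes they tested, in the same order. The smallest adjusted p of edgeR among the other members was 0.138, that of DERL1. Before adjustment 9 of the 35 had a p below 0.05 (6 with lower and 3 with higher values), beside 13.5% of all genes (6.88% lower and 6.62% higher). The libraries of the conditions did not overlap for 8 members that were lower (beside 10.6% of all genes) and for 3 that were higher (beside 9.97%), or 20.5% of all genes in either direction. The median log2 fold change was -0.02, against 0.01 for all genes tested, and 19 of the 35 were negative, or 54.3%, against 48.6% of all genes. Since the list was proposed with this contrast known, nothing is read from these shares. The plot of the members by library shows HYOU1 lowest, with the log2 fold changes of the other 34 between -0.25 and 0.58.

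**Figure D1:**
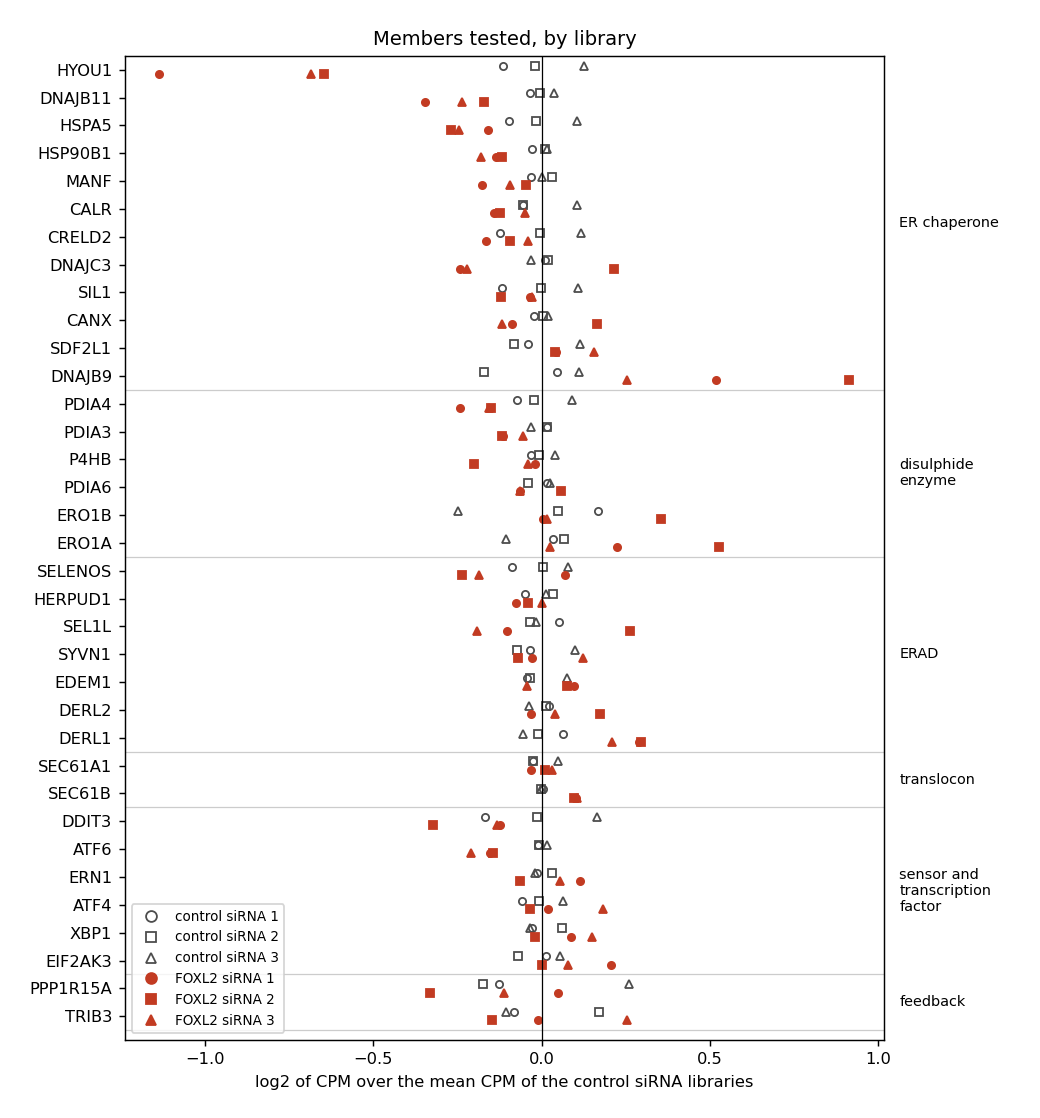
Level of each of the 35 members tested in each library, as the log2 of its CPM over the mean CPM of the 3 control siRNA libraries (open grey, control siRNA; filled red, FOXL2 siRNA; the shape gives the replicate number), ordered by role and by log2 fold change. HYOU1 lies below 0 in all 3 FOXL2 siRNA libraries and further than any other member, and DNAJB9 lies highest.

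The ER chaperones and their cofactors were the group with most members on the lower side, 10 of 12, beside 48.6% of all genes tested. Their median log2 fold change was -0.10, and nothing is read from this count. edgeR called HYOU1 alone among them, and DESeq2 HYOU1 and DNAJB9, beside 0.255% and 2.23% of all genes tested. HSPA5 was at 1276, 1350.3 and 1469.5 CPM with the control siRNA and at 1222, 1134 and 1152 CPM with the FOXL2 siRNAs. The groups did not overlap (log2 fold change -0.22, SE 0.0688). HSP90B1 (GRP94), the HSP90 of the ER, had 1332, 1368 and 1375 CPM against 1237, 1251 and 1199.9 CPM, without overlap (log2 fold change -0.14, SE 0.0540). DNAJB11 (ERdj3), a J-domain cochaperone of HSPA5, was at 92.0, 94.0 and 96.7 CPM against 74.1, 83.7 and 80.0 CPM (log2 fold change -0.25, SE 0.0660). Pool 1 gave the lowest DNAJB11 value, as it did for HYOU1. edgeR called DNAJB11 when FOXL2 siRNA replicate 2 was left out (-0.30, adjusted p = 0.0315).
DNAJB9 (ERdj4), another J-domain protein of the ER, lay on the opposite side, with 10.8, 9.30 and 11.3 CPM with the control siRNA and 15.0, 19.8 and 12.5 CPM with the FOXL2 siRNAs. All 3 FOXL2 siRNA libraries were above the control libraries, and they spread over a wider range than these. Its mean was 150.4% of the control (log2 fold change 0.58, SE 0.166), which passed the threshold of DESeq2 and not that of edgeR (adjusted p = 0.0429 and 0.198). Without FOXL2 siRNA replicate 2 the log2 fold change of DNAJB9 was 0.38 in edgeR. DNAJC3 (p58IPK) had 54.4, 54.7 and 52.8 CPM against 45.6, 62.7 and 46.3 CPM. FOXL2 siRNA replicate 2 lay above the control libraries and the other 2 below them. MANF was lower without overlap, at 98.8 ± 2.14 and 91.9 ± 4.26 CPM (SD, n = 3 each). CALR, CANX, CRELD2, SIL1 and SDF2L1 overlapped between the conditions in CPM, at 93.0% to 106% of their control means. CALR (calreticulin), the lectin chaperone of glycoproteins, was the most abundant member per transcript length, with 1366 ± 61.7 TPM in the control libraries (SD, n = 3).

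**Figure D2:**
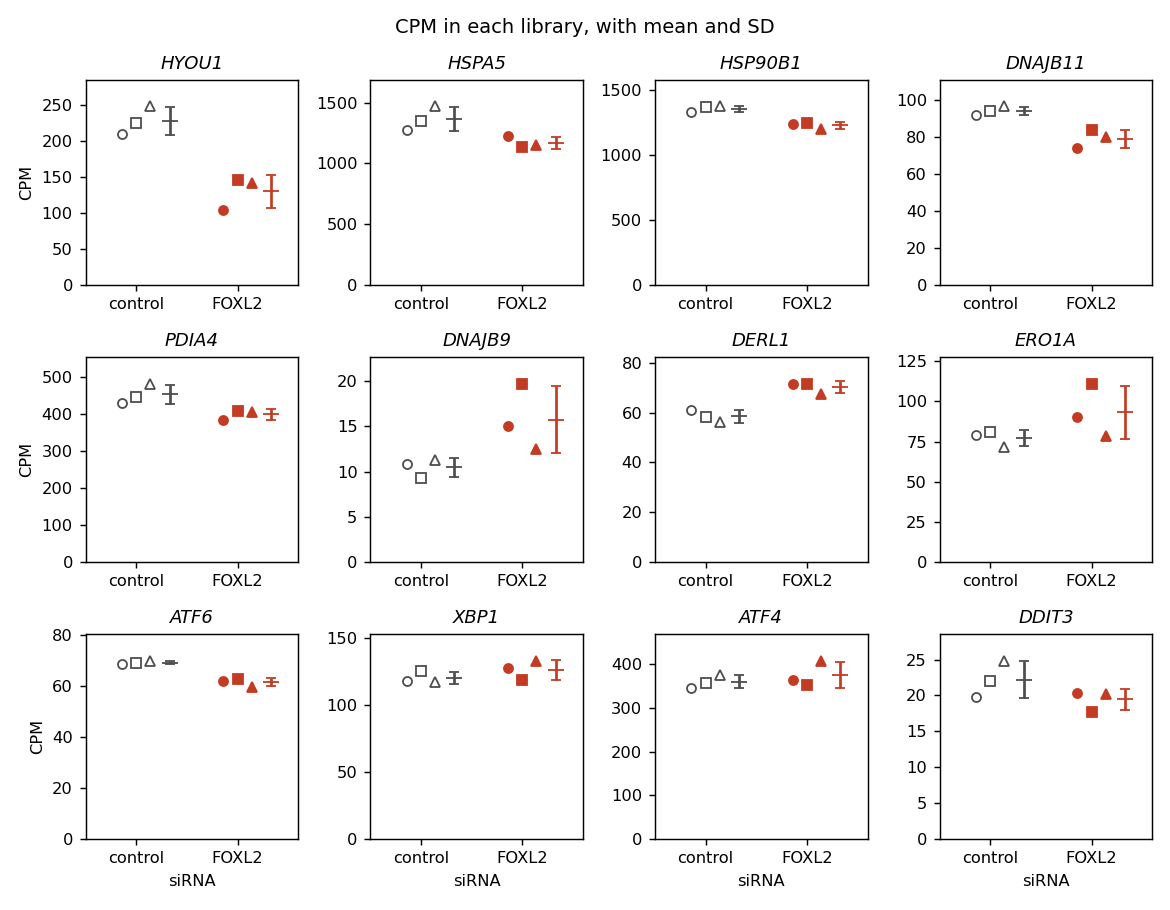
CPM of 12 members in each library, from 0 (open grey, control siRNA; filled red, FOXL2 siRNA; the shape gives the replicate number), with the mean and SD of the 3 libraries at the right of each group. The FOXL2 siRNA libraries of HYOU1 lie between 103 and 145 CPM and those of its partner HSPA5 between 1134 and 1222 CPM, and DNAJB9 and DERL1 lie above their controls.

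Among the 6 enzymes of disulphide formation, edgeR and DESeq2 called 0, and 2 had an unadjusted p below 0.05, beside 13.5% of all genes tested. PDIA4 (ERp72), a protein disulphide isomerase, was at 431, 446 and 483 CPM with the control siRNA and at 383, 408 and 407 CPM with the FOXL2 siRNAs, without overlap (log2 fold change -0.18, SE 0.0635). PDIA3 (ERp57), which works with calnexin and calreticulin, had 568 ± 10.8 and 531 ± 13.3 CPM (SD, n = 3 each), also without overlap. P4HB and PDIA6 overlapped, at 94.3% and 98.4% of their control means. ERO1A, the oxidase that recharges the isomerases, had 79.0, 80.7 and 71.7 CPM against 90.2, 111 and 78.5 CPM (log2 fold change 0.27, SE 0.118), with its highest value in FOXL2 siRNA replicate 2 and its lowest FOXL2 siRNA value inside the control range. Without replicate 2 the log2 fold change of ERO1A was 0.12. Its paralog ERO1B was scarce, with 3.94 ± 0.565 and 4.33 ± 0.619 CPM (SD, n = 3 each). From counts, the log2 fold change of ERO1B was 0.13 (SE 0.165), and with effective lengths as offsets -0.39. From counts it was 0.010 without FOXL2 siRNA replicate 2, and 0.22 and 0.016 without control siRNA replicates 1 and 3.

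Of the 7 ERAD components tested, 0 were called by edgeR or DESeq2. Before adjustment 1, DERL1, had a p below 0.05, beside 13.5% of all genes tested. DERL1 (derlin-1), a channel component of retrotranslocation, was at 61.2, 58.2 and 56.3 CPM with the control siRNA and at 71.6, 71.8 and 67.7 CPM with the FOXL2 siRNAs (log2 fold change 0.26, SE 0.0640) with no overlap. SEL1L, the partner of the ligase SYVN1, had 122, 115 and 116 CPM against 109, 141 and 103 CPM, and replicate 2 was again the FOXL2 siRNA library above the controls. SYVN1, HERPUD1, EDEM1, DERL2 and SELENOS overlapped, at 92.5% to 105% of their control means. The translocon subunit SEC61A1 had 595 ± 18.3 and 596 ± 13.3 CPM (SD, n = 3 each). Its small partner SEC61B had 51.5, 51.3 and 51.3 CPM against 55.2, 54.9 and 55.3 CPM. The spread of SEC61B was narrow in both conditions and the values did not overlap (log2 fold change 0.10, SE 0.0583). Neither subunit was called by edgeR or DESeq2 or had an unadjusted p below 0.05.

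The sensors and transcription factors of the response showed small differences. edgeR and DESeq2 called 0 of the 6, and ATF6 alone had an unadjusted p below 0.05, beside 13.5% of all genes tested. ATF6 was at 68.6, 68.8 and 69.9 CPM with the control siRNA and at 62.1, 62.6 and 59.7 CPM with the FOXL2 siRNAs, without overlap (log2 fold change -0.17, SE 0.0585). XBP1 had 118, 126 and 117 CPM against 128, 119 and 133 CPM, and its log2 fold change was 0.07 (SE 0.0658). These gene counts do not separate spliced from unspliced XBP1. ATF4, which is controlled mainly at translation, had 346, 358 and 376 CPM against 365, 352 and 408 CPM. Its log2 fold change was 0.06 (SE 0.0709), and -0.0097 without FOXL2 siRNA replicate 3. DDIT3 (CHOP), a transcriptional target of ATF4, had 19.7, 21.96 and 24.9 CPM against 20.3, 17.7 and 20.2 CPM (log2 fold change -0.19, SE 0.105, and -0.10 without control siRNA replicate 3), with overlap. ERN1 was scarce, at 5.75 ± 0.111 CPM with the control siRNA and 5.89 ± 0.368 CPM with the FOXL2 siRNAs, and EIF2AK3 was at 19.8 ± 0.881 and 21.2 ± 1.54 CPM (SD, n = 3 each). Their log2 fold changes were 0.04 (SE 0.113) and 0.10 (SE 0.0853), and both were negative with effective lengths as offsets. PPP1R15A (GADD34), which lets translation resume, and TRIB3, an inhibitor of ATF4 and DDIT3 activity, were at 91.9% and 103% of their control means, with overlap.

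Summed over all 36 members, the level per transcript length was 7283, 7493 and 7676 TPM with the control siRNA, or 0.728% to 0.768% of all transcripts, and 6886, 7252 and 7216 TPM with the FOXL2 siRNAs, or 0.689% to 0.725%. The sum of the 12 chaperones and cofactors was 3905 ± 145 TPM with the control siRNA and 3573 ± 104 TPM with the FOXL2 siRNAs (SD, n = 3 each). Without HYOU1 the sum of the other 35 members was 7200.0, 7402 and 7577 TPM against 6843, 7189 and 7158 TPM. In each of these 3 sums the highest FOXL2 siRNA library was below the lowest control library, as it was for the 6 disulphide enzymes (1967.8 to 1990 TPM against 1836 to 1946 TPM). The sum of the 2 translocon subunits went the other way in TPM, with 461.7, 468.5 and 467.4 TPM against 469.2, 513.0 and 485.9 TPM and no overlap. In CPM the translocon sums overlapped, at 637, 636 and 668 CPM against 637, 654 and 663 CPM. The other sums named above were without overlap in CPM as well. The sums of the ERAD components, of the sensors and transcription factors and of the feedback genes overlapped between the conditions. Abundant members weigh most in such sums. Of the 34 members tested other than HYOU1, 18 had negative and 16 positive log2 fold changes, with a median of -0.016.

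The members with an ERSE or ERSE-II in the window numbered 11, with log2 fold changes from -0.81 (HYOU1) to 0.13 (ERO1B) and a median of -0.04, and the 22 tested members without either had a range of -0.25 to 0.58 and a median of 0.00. HSPA5 and HSP90B1 followed HYOU1 in the first group at -0.22 and -0.14, while the 3 members with an ERSE-II were at -0.81 (HYOU1), -0.04 (HERPUD1) and 0.08 (SDF2L1). edgeR and DESeq2 called 1 of the 11 (HYOU1), beside 0.255% and 2.23% of all genes tested. Before adjustment 3 of the 11, HYOU1 among them, had p below 0.05 in edgeR, all lower. Of the 22, edgeR called 0 and DESeq2 1 (DNAJB9), and 5 had p below 0.05 before adjustment (3 lower and 2 higher). The shares of all genes were 6.88% lower and 6.62% higher. Since HYOU1 heads a list proposed with this contrast known, nothing is read from these counts. The map of motif matches sets these positions beside the log2 fold changes.

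**Figure D3:**
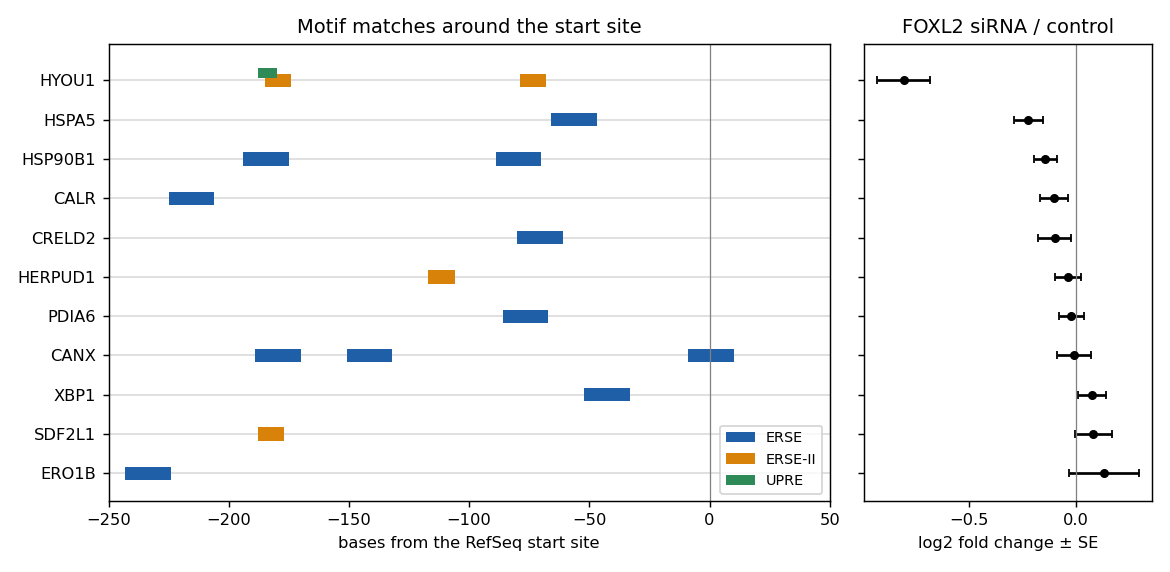
Left, matches of the ERSE, ERSE-II and UPRE letters around the RefSeq start site of the 11 members with an ERSE or ERSE-II, in bases from the start (for CANX the same match is drawn from 3 of its start sites). Right, edgeR's log2 fold change of each member after FOXL2 siRNA with its standard error, where HYOU1 is at -0.81 and the others lie between -0.22 and 0.13.

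RSEM's effective length of a gene follows the transcripts it assigned reads to, so it tells whether a difference in counts goes with a difference in transcript lengths. Of the 35 members tested, 29 had mean effective lengths within 10% between the conditions. The 6 others of the 35 were CANX, ERO1A, ERO1B, DERL1, ERN1 and EIF2AK3, beside 17.8% of all genes tested whose length differed by over 10% in either direction. All 6 were longer after FOXL2 siRNA. The share of all genes that were longer was not computed, so nothing is read from this direction. CANX (calnexin) had 1706, 1640.4 and 1563 bases with the control siRNA and 1696, 2423 and 1623 bases with the FOXL2 siRNAs, so that its difference lay in replicate 2 alone. DERL1 and ERO1A were also longest in FOXL2 siRNA replicate 2, with 2756 and 2777 bases. ERO1B had 1793, 3325 and 1991 bases with the control siRNA and 3243, 3877 and 3093 bases with the FOXL2 siRNAs, on about 89 to 122 counts per library. With these lengths as offsets in edgeR, the log2 fold change of HYOU1 was -0.75 (SE 0.126), that of DNAJB9 0.72, that of DERL1 0.13 and that of ERO1A 0.09. For DERL1 and ERO1A it was therefore closer to 0 than without the offsets, and for DNAJB9 further from it. For CANX the log2 fold change in edgeR was -0.19 with the offsets (adjusted p = 0.344) and -0.0083 without them. In TPM the conditions did not overlap for CANX (516, 548 and 565 with the control siRNA against 489, 439 and 506). edgeR with these offsets called 0 of the 35 members (0.281% of all genes), 7 had an unadjusted p below 0.05 in that fit, and DESeq2 with the same offsets called HYOU1 and DNAJB9 (2.2% of all genes).

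**Figure D4:**
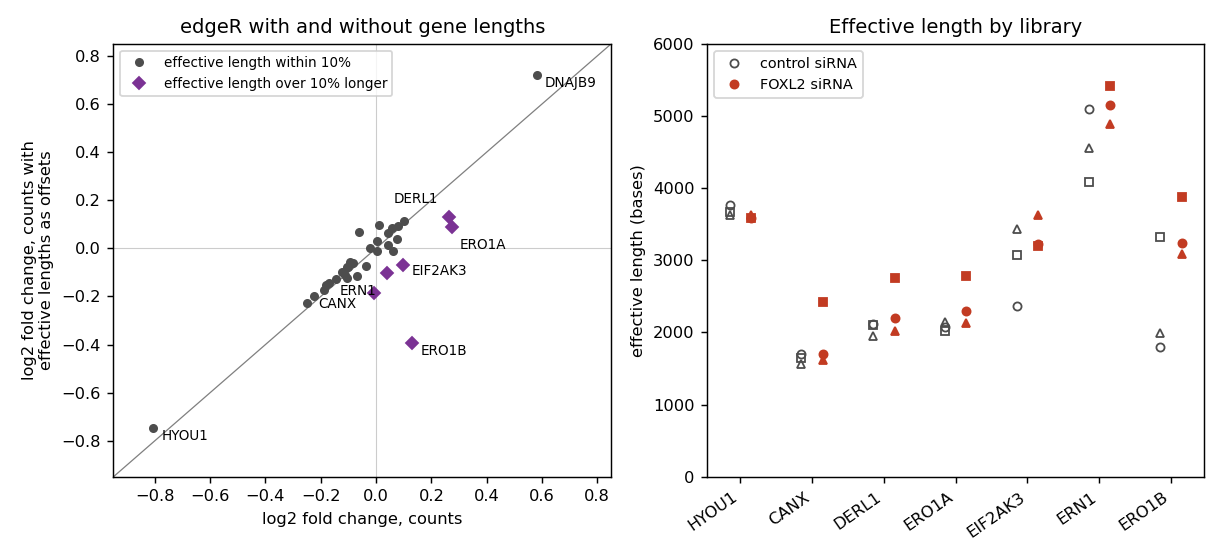
Left, edgeR's log2 fold changes of the 35 members from counts (x axis) and with effective lengths as offsets (y axis), with the line of equal values; purple diamonds are the 6 members whose mean effective length was over 10% longer after FOXL2 siRNA. Right, effective length in bases in each library for HYOU1 and these 6 members, where HYOU1 stays between 3581 and 3769 bases and FOXL2 siRNA replicate 2 (square) is the highest for CANX, DERL1 and ERO1A.

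The rest of the pathway was described from 6 further lists with 161 genes, all of which passed the filter. None of the 161 passed edgeR's threshold (0 called, beside 0.255% of all genes tested), and 4 passed that of DESeq2 (beside 2.23%). Before adjustment 23 had p below 0.05 in edgeR (14 lower and 9 higher), beside 13.5% of all genes (6.88% lower and 6.62% higher). The counts given below for each list stand beside these same shares and, for direction, beside the 48.6% of all genes that were negative. Nothing is read from these counts. The median log2 fold change of the 161 was 0.01, the same as that of all genes. Of 36 other ER folding factors, edgeR and DESeq2 called 0 and 3 had an unadjusted p below 0.05. The lowest was TMX3, a membrane-bound thioredoxin of the ER, with 94.5, 99.6 and 85.4 CPM against 48.3, 92.9 and 57.3 CPM. FOXL2 siRNA replicate 2 lay within the control range and the other 2 below it, and the log2 fold change was -0.50 (SE 0.203). With effective lengths as offsets it was -0.72 (SE 0.0901) and edgeR called it (adjusted p = 0.0220). Leaving out FOXL2 siRNA replicate 1 gave -0.31 from counts, and leaving out replicate 2 gave -0.82, which edgeR called (adjusted p = 0.0030). FKBP11 was the highest of the list, at 0.29 (SE 0.143), and at 0.49 without control siRNA replicate 3.
Of 23 other ERAD genes, edgeR and DESeq2 called 0 and 2 had an unadjusted p below 0.05. They ranged from VCP, the ATPase that extracts substrates, at -0.20 (SE 0.0645) to the ligase RNF139 at 0.28 (SE 0.161), which was at 0.13 without FOXL2 siRNA replicate 2 and at 0.15 without control siRNA replicate 3. Of 28 translocation and transport genes, edgeR called 0, 3 had p below 0.05 before adjustment and DESeq2 called 2, with 22 of the 28 on the higher side and a median of 0.04. TRAM1, a translocon-associated protein, rose by the test of DESeq2, with 115, 108 and 106 CPM against 137, 204 and 123 CPM and its highest value in replicate 2. Its log2 fold change was 0.49 with all libraries and 0.24 without that one. SEC61G, the third SEC61 subunit, which was named after its values were seen, also rose by that test, from 61.2 ± 0.641 to 78.3 ± 5.85 CPM (SD, n = 3 each), and edgeR gave it an adjusted p of 0.0992, or 0.0402 without FOXL2 siRNA replicate 2. With effective lengths as offsets DESeq2 called SEC61G and not TRAM1. SRPRA was the lowest of the list, at -0.14 (SE 0.0694), and at -0.073 without control siRNA replicate 3.
Of 27 other signalling genes, edgeR called 0, 7 had p below 0.05 before adjustment and DESeq2 called 1. That was EIF2B3, a subunit of the exchange factor on which PERK acts through eIF2, with 27.1, 28.7 and 26.0 CPM against 22.2, 20.1 and 20.6 CPM (log2 fold change -0.38, SE 0.0792), a call that DESeq2 did not make with effective lengths as offsets. Without FOXL2 siRNA replicate 2 edgeR called EIF2B3 too (-0.35, adjusted p = 0.0473). CREBRF was the highest, at 0.50 (SE 0.182), or 0.29 without FOXL2 siRNA replicate 2, on 3.99, 4.37 and 4.37 CPM against 5.49, 7.73 and 4.93 CPM. Of 30 targets of ATF4 and CHOP, edgeR and DESeq2 called 0 and 4 had an unadjusted p below 0.05. Their median was 0.06, with 22 of the 30 on the higher side, from WARS1 at -0.20 (SE 0.0816) to TNFRSF10B (DR5), a death receptor, at 0.26 (SE 0.0713). Of 17 cytosolic and mitochondrial heat shock genes, 12 were on the lower side, with a median of -0.08 and HSPD1 the highest at 0.10 (SE 0.0666). Among the 17, edgeR called 0, 4 had p below 0.05 before adjustment and DESeq2 called 1. The 1 was HSP90AB1, a constitutive cytosolic HSP90, which fell by the test of DESeq2 from 1651, 1653 and 1677 CPM to 1444, 1189.6 and 1313 CPM. Its log2 fold change of -0.34 (SE 0.0751) passed edgeR's threshold when FOXL2 siRNA replicate 1 or 2 was left out (adjusted p = 0.0451 and 0.0315). Each list's genes stand in the plot of the pathway lists.

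**Figure D5:**
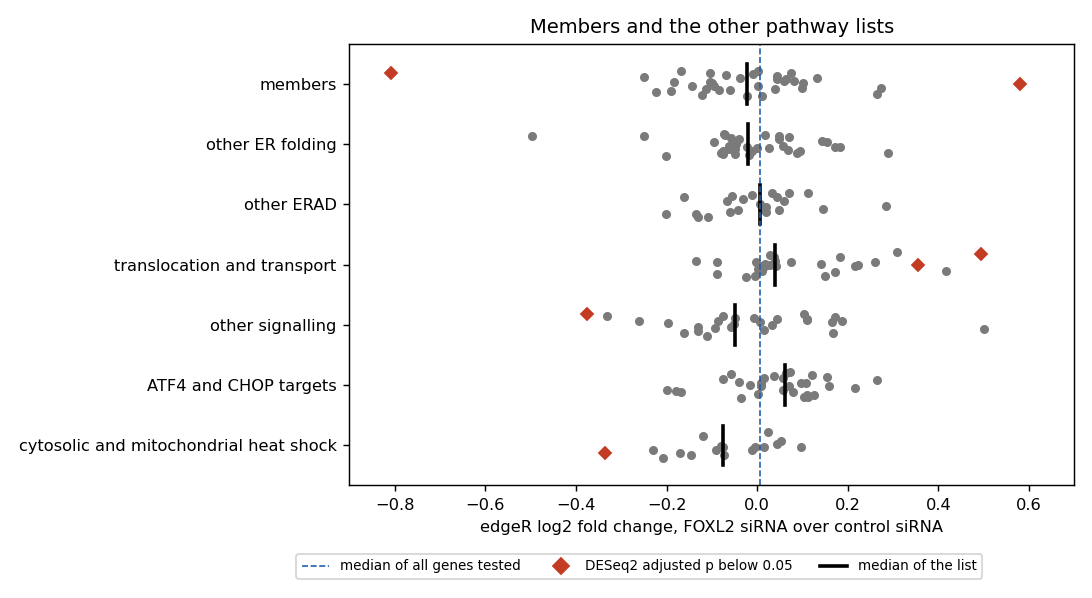
edgeR's log2 fold change after FOXL2 siRNA of each gene tested, for the 35 members and the 6 other lists (points, jittered vertically). Black bars are the medians of the lists, which lie between -0.08 and 0.06, the dashed line is the median of all genes tested at 0.01, and red diamonds are genes with a DESeq2 adjusted p below 0.05, HYOU1 and DNAJB9 being the outermost.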

How the data were processed

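The members and the lists of other pathway genes were chosen with earlier results of these data known. Per the labels and the study's methods, stranded mRNA libraries were prepared, and single reads of 75 bases were processed with tools that the submitters' notes give as STAR 2.7.6a, Picard 2.8.1 and RSEM 1.3.1. The authors deposited RSEM's expected count (estimated reads, not normalized) and its TPM for every gene and library. The deposited tables also give RSEM's effective length. The submitters' processing notes name the mouse build GRCm38 although the gene identifiers are human, and the annotation release is not given in the sources used here. Symbols came from a table that held 60401 of the 60671 identifiers.

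Expected counts were rounded, filtered with filterByExpr, normalized by TMM and compared with edgeR 4.0.16's quasi-likelihood test (glmQLFit, glmQLFTest) under R 4.3.3. The SE given with an edgeR log2 fold change is its absolute value divided by the square root of the F statistic of that test. The Benjamini-Hochberg method adjusted p over the 15663 genes kept and the threshold was 0.05. CPM values are TMM-normalized. Totals of 23843192 to 28791954 counts give each library's depth, and a count of 0 allows up to 3 counts, which covers counting error alone. Simulated data with known changes were used to check the test. Alternatives were DESeq2 1.42.0 (the study's tool), limma 3.58.1 (voom, and log2(TPM + 1) or log2(TPM + 0.5) with a mean TPM of at least 1), DESeq2's size factors, other filters on low counts, effective lengths as offsets, the replicate number as a block, each library left out, and the older quasi-dispersion, chosen after seeing the data. Full values were given for HYOU1, calls of edgeR or DESeq2, the 5 lowest and 5 highest members and the 6 sensors and factors, and of other lists for edgeR calls or else the lowest and highest gene. Promoters are RefSeq's (GRCh38.p14), and gene coordinates are GENCODE v29's on GRCh38.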

Additional observations from a re-analysis of the deposited data

How the results depend on the processing

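HYOU1 kept its direction under the 17 alternatives, at -0.90 to -0.67 with 1 library left out, the larger decrease without FOXL2 siRNA replicate 2 and the smaller without replicate 1. It was not called by edgeR without control siRNA replicate 1, 2 or 3 (adjusted p = 0.247, 0.256 and 0.177) or without FOXL2 siRNA replicate 3 (0.0915), nor with effective lengths as offsets in edgeR (-0.75, adjusted p = 0.0561), nor by limma on log2(TPM + 1) (-0.74, adjusted p = 0.154) or log2(TPM + 0.5) (-0.75, adjusted p = 0.154) and the cause was not tested. edgeR called it without FOXL2 siRNA replicate 1 (adjusted p = 0.0125) and without replicate 2 (0.0058). DESeq2 called HYOU1 with all libraries (adjusted p = 1.55e-08, and 5.53e-07 with offsets). The number of members called was 2 with DESeq2, 2 with DESeq2 and offsets, 0 with edgeR and offsets, 0 with either limma fit on TPM, and 0 to 2 with 1 library left out. The number of other pathway genes called was 4 with DESeq2 (EIF2B3, HSP90AB1, SEC61G and TRAM1), 4 with DESeq2 and offsets (CREB3L2, HSP90AB1, SEC61G and TMX3), 1 with edgeR and offsets (TMX3), and 0 to 5 with 1 library left out, the 5 without FOXL2 siRNA replicate 2 (EIF2B3, HSP90AB1, NFYA, SEC61G and TMX3) and 1 without replicate 1 (HSP90AB1). CREB3L2 and NFYA were named after their values were seen. The members' median log2 fold change was -0.052 to -0.0012 with 1 library left out, -0.071 with offsets in edgeR, -0.079 with offsets in DESeq2, -0.061 with log2(TPM + 1) and -0.063 with log2(TPM + 0.5).

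Of the genes named, ERO1B, ERN1 and EIF2AK3 had negative values with offsets in edgeR (-0.39, -0.10 and -0.071), with offsets in DESeq2 (-0.45, -0.12 and -0.084), with log2(TPM + 1) (-0.29, -0.070 and -0.061) and with log2(TPM + 0.5) (-0.34, -0.084 and -0.063). With 1 library left out, ERN1 ranged from -0.0012 to 0.079 and HSPH1 from -0.011 to 0.089, both lowest without FOXL2 siRNA replicate 1. ATF4 ranged from -0.0097 (without FOXL2 siRNA replicate 3) to 0.099, and HSPA4L from -0.028 to 0.024, above 0 without FOXL2 siRNA replicate 2 or control siRNA replicate 3. None of these was called under any of the 17.

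When edgeR took the replicate number as a block, HYOU1 was at -0.82 (adjusted p = 0.0348), the 1 member called, and the block changed no call among the genes named here. Over all genes that each fit tested, the block gave 11 calls, against 40 without it; DESeq2 called 350, the fits on TPM 13 each, edgeR 70 without a filter and 64 with a mean of at least 50 counts, and the fits with 1 library left out 2 to 579. The deviations of libraries with the same number correlated at -0.0301, 0.0473 and 0.0478 across genes for replicates 1, 2 and 3, so the numbers were not taken to pair the libraries.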

Other observations

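FOXL2 siRNA replicate 2, which held the extreme score on the first principal component, was the FOXL2 siRNA library farthest from the other 2 for 15 of the 35 members tested, beside 46.4% of all genes. For 9 members it was replicate 1, HYOU1 and DNAJB11 among them, and for 11 replicate 3.

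A stretch of 8 G doublets with gaps of 1 to 4 bases, the kind of G2-rich sequence with which the study was concerned, was sought in the longest GENCODE v29 transcript of each gene. The pattern is looser than the consensus that the paper gives. It was found in 6 of the 35 members tested, or 17.1% (ATF4, DERL2, ERO1A, MANF, SDF2L1 and SELENOS), and not in HYOU1. Of the 15530 genes tested that had a transcript there, 19.3% held it. The paper itself compared its differentially expressed genes with genes whose transcripts another study had found to form G-quadruplexes in vitro. These shares are therefore not set against its result. The median lengths of these transcripts were 3032 and 3323 bases.

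The processed pseudogene PDIA3P1 was assigned 497 counts per library on average, and reads that it shares with PDIA3 cannot be told apart. Other pseudogenes named after members had at most 8.79 counts in any library.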
